A study of Rattus norvegicus with 45 samples.

Results

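Osteopontin (Spp1) and 4 further transcripts used as markers of kidney tubule injury, Havcr1 (KIM-1), Lcn2 (lipocalin 2, also called NGAL), Clu (clusterin) and Timp1 (tissue inhibitor of metalloproteinases 1), were followed through the tissues of hypertensive rats given empagliflozin. The 5 genes are 5 of 20794 in the deposited tables and were found by symbol. They were chosen by their FPKM in kidney and lung, with the differences between the arms there already known, so those differences are described without a test. Empagliflozin inhibits the glucose transporter SGLT2 of the proximal tubule.

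All rats were male SHR (spontaneously hypertensive) rats, 8 weeks old and weighing 220 to 260 g. They received by gavage, for 30 days, either empagliflozin (10 mg/kg daily) or saline as vehicle. Both arms were of this strain, and no normotensive strain is among the 45 libraries. The 15 groups held 3 libraries each, from kidney, lung, aorta, brain, brown fat, white fat and tissue labelled V in both arms and from atrium in the empagliflozin arm. Vehicle atrium was not analysed here. RNA came from whole tissue, so fewer cells of a type and less RNA per cell cannot be told apart. Replicates are 3 rats per arm according to the design text, and the p-values measure the spread between these libraries.

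Osteopontin is a secreted, phosphorylated glycoprotein that binds integrins and CD44; in rodent kidney it is made mainly by the loop of Henle and distal nephron, and macrophages make it in many tissues. KIM-1 is a membrane receptor for phosphatidylserine that appears on the proximal tubule after injury, and lipocalin 2 is a secreted protein that binds bacterial siderophores. Clusterin is a secreted chaperone, and TIMP-1 inhibits matrix metalloproteinases; both are known to increase in injured kidney.

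Levels are in FPKM, read fragments divided by transcript length and by the mapped total, and differences are empagliflozin minus vehicle on the log2(FPKM + 1) scale, which understates the change of low genes. FPKM totals ranged from 414248 to 824205 per library, and the depth in reads is unknown. By overall profile 43 of 45 libraries lay closest to a library from the same tissue. Those that did not were the aorta libraries numbered 1 of both arms, which lay closest to brown fat: their summed smooth muscle markers were 419 and 402 FPKM, against 5812 to 22030 FPKM in the other 4 aorta libraries. Empagliflozin aorta library 3 lay closest to its own tissue only through empagliflozin aorta library 1 (r = 0.960). The tissue labelled V is named liver in the labels and ventricle in the design. Its cardiomyocyte markers summed to 45260 to 50520 FPKM, its hepatocyte markers to 39.4 to 47.7 FPKM, and Alb (albumin) was listed at 0 in all 3 vehicle libraries.

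Spp1 was the member that separated the arms in kidney. Its level was 83.2, 99.7 and 97.7 FPKM in the vehicle kidneys and 296, 269 and 376 FPKM in the empagliflozin kidneys. All 3 empagliflozin libraries lay above all 3 vehicle libraries, and the lowest of them was 2.70 times the highest vehicle value. The means were 93.5 ± 8.97 and 313 ± 55.5 FPKM (SD, n = 3 each), a ratio of 3.35 and a log2 difference of 1.72 ± 0.15 (SE). Of 12848 kidney genes, 19 had a difference at least this high, Spp1 included. Across the kidney table, the arms did not overlap in 19.1% of genes, 13.6% lying wholly higher and 5.56% wholly lower with empagliflozin, and 66.8% had a difference above 0. Adjusted over all genes, 0 kidney genes passed at 0.05 with limma, and 1504 had an unadjusted p under 0.05. Without empagliflozin kidney library 2 the count of genes that passed was 636. By overall profile that library lay closest to vehicle kidney library 3 (r = 0.9915). Empagliflozin kidney libraries 1 and 3 lay closest to each other (r = 0.9859). The median log2 difference over all kidney genes was 0.10.

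The upstream sequence of Spp1 is shown because it is the member that separated the kidney arms, and that of Lcn2 because it separated the lung arms. Both are the 250 bases before the annotated gene start from RefSeq on build GRCr8, which is not the build of the deposited tables. Spp1 lies at chr14:5619805-5620054 (minus strand) and Lcn2 at chr3:36081781-36082030 (minus strand), and each is printed 5′ to 3′ on the gene's strand. Capitals mark matches to the motifs searched on both strands.
Spp1: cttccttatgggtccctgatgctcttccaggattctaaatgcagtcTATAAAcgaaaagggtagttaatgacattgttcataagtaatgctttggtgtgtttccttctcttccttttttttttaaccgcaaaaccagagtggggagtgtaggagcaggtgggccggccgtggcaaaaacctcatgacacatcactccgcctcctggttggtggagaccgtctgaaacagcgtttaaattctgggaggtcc
Lcn2: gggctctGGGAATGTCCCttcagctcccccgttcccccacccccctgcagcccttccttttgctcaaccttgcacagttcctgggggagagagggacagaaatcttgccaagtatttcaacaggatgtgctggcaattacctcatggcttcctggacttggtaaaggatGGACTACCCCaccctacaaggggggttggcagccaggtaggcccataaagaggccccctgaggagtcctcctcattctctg
Of the 5 members, 4 had an entry in the promoter table, and Clu did not. The AP-1 motif was written TGANTCA. The start-site motif known as the TATA box was searched as TATAAA. For the E-box the letters were CACGTG, and an Sp1 match needed GGGCGG. The NF-kB motif was searched in a strict form, the kappa-B sequence of the immunoglobulin kappa enhancer, and in a loose form, 3 G and a pair of C with 5 bases of any kind between, which includes the strict form. Spp1 held TATAAA at position -204 from the annotated gene start, and 12.9% of 33469 promoter windows held these letters somewhere. Lcn2 held the loose NF-kB form in 3 matches, a pair of them overlapping on opposite strands, and 42.3% of windows held this form; the strict form stood in 0.0956% of windows and in none of the 4 members. Timp1 held the loose form and GGGCGG, the latter in 30.5% of windows, and Havcr1 held none of these letters in this window. AP-1 and E-box, in 6.34% and 5.59% of windows, matched none of the 4. A match is a description of letters, not a binding site.

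Markers of the nephron segments also differed between the kidney arms. Summed markers of the loop of Henle to collecting duct were 4602 to 4992 FPKM with vehicle and 5363 to 6785 FPKM with empagliflozin; proximal tubule markers summed to 6379 to 8152 and 3774 to 5560 FPKM. Neither list overlapped between the arms. Of 12 loop to collecting duct markers 10 had a difference above 0, with a median of 1.10, and 3 did not overlap, Kcnj1, Avpr2 and Calb1. Umod (uromodulin of the thick ascending limb), the most abundant of the 12, was at 3596, 3668 and 3546 FPKM with vehicle and 2037, 3794 and 2235 FPKM with empagliflozin, and the loop transporter gene Slc12a1 averaged 209 and 224 FPKM, both overlapping. Of 10 proximal tubule markers tested 9 had a difference below 0, with a median of -0.44. Spp1 as a percentage of the summed loop to collecting duct level was 1.81, 2.00 and 2.03 with vehicle and 5.28, 5.01 and 5.53 with empagliflozin. As a percentage of podocyte markers it was 221.5, 175 and 76.8 with vehicle and 172, 259.8 and 123 with empagliflozin, and of endothelial markers 208, 153 and 123 and 312, 342 and 200.5. The arms were apart in the first of these ratios and overlapped in the others. As a percentage of proximal tubule markers it was 1.22 to 1.53 and 4.96 to 9.95, and of macrophage markers 205.5 to 741 and 1134 to 1466, both without overlap. Podocyte markers summed to 37.6 to 127 FPKM with vehicle and 103 to 306 FPKM with empagliflozin, and endothelial markers to 40.0 to 79.2 and 78.5 to 187 FPKM. Macrophage markers, a further source of osteopontin, summed to 11.2 to 48.5 and 20.2 to 27.9 FPKM, which overlapped. The mesothelial sum lay wholly lower with empagliflozin, at 96.4 to 117 and 43.6 to 94.8 FPKM. Only 2 of its 6 markers were tested, however, 1 with a difference above 0 and 1 below (median 0.11). Of these 0 lay wholly lower. The part of the tissue make-up in the Spp1 difference was not tested.

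**Figure D1:**
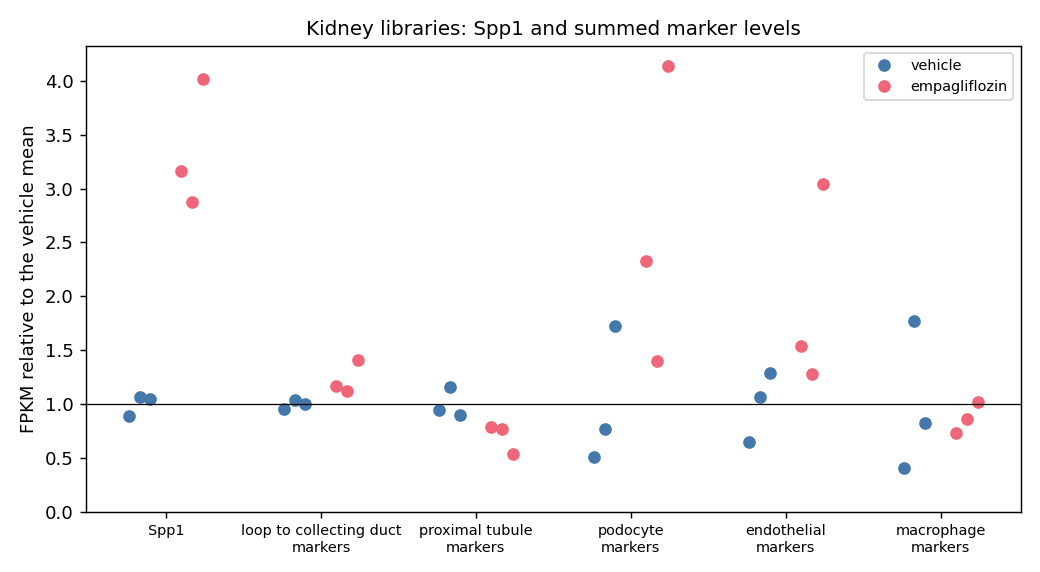
Spp1 and summed cell type markers in the 6 kidney libraries, each relative to its vehicle mean (y axis, linear scale), with points for libraries and colours for arms. Spp1 lies at 269 FPKM or more in every empagliflozin library and at 99.7 FPKM or less in every vehicle library, while the proximal tubule markers lie lower and the loop to collecting duct markers higher with empagliflozin.

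The other 4 members overlapped between the kidney arms. Havcr1, the proximal tubule injury receptor, was at 0.66, 0.26 and 0.24 FPKM with vehicle and 0.27, 4.52 and 0.15 FPKM with empagliflozin. Empagliflozin library 2 stood alone, and the remaining 5 kidney libraries were at 0.66 FPKM or lower; without it the gene averaged under 1 FPKM in both arms and gave no difference. Lcn2 was at 3.32, 3.95 and 5.33 FPKM with vehicle and 2.34, 4.26 and 3.78 FPKM with empagliflozin, a difference of -0.23 ± 0.23. Clu was at 21.1, 45.9 and 27.4 FPKM and at 30.7, 28.1 and 54.8 FPKM, a difference of 0.27 ± 0.34 that turned to -0.0229 without empagliflozin library 3. Timp1 was at 2.92, 7.20 and 4.89 FPKM and at 6.73, 4.79 and 8.28 FPKM, a difference of 0.38 ± 0.30. In these 3 genes both arms spanned much the same range. Vehicle kidney library 2, which had the highest vehicle Clu and Timp1, also had the highest summed adipocyte markers of the kidneys, 146 FPKM.

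Related genes in kidney were described from lists chosen with earlier results known. Of 12 tested genes for osteopontin receptors, processing enzymes and relatives, 9 had a difference above 0, where 66.8% of all kidney genes did, and 3 lay wholly higher, against 13.6%. The median was 0.39 against 0.10 over all genes. Itga8, an integrin subunit that binds osteopontin, averaged 0.85 FPKM with vehicle and 2.66 FPKM with empagliflozin and did not overlap. Itgb6, an epithelial integrin subunit, averaged 18.6 and 38.0 FPKM and Mmp9, a protease that cleaves osteopontin, 1.66 and 4.19 FPKM, both overlapping. Of 7 tested receptors and partners of KIM-1, lipocalin 2 and clusterin, 3 lay above 0 and 4 below (median -0.12). There Lrp2, the endocytic receptor megalin, averaged 181 and 132 FPKM, the complement component C7 4.84 and 2.75 FPKM and the sheddase Adam17 7.21 and 9.49 FPKM, all overlapping.

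Among TIMPs and metalloproteinases 9 of 11 lay above 0 (median 0.68): Timp2 averaged 10.7 and 25.5 FPKM and Mmp23 2.63 and 6.45 FPKM with overlap, whereas Mmp11 averaged 10.4 and 4.77 FPKM without it. Of 29 other injury and repair genes 20 lay above 0 and 9 below, with a median of 0.17, a share close to the 66.8% of all genes. The cytokine Il18 averaged 5.76 and 17.1 FPKM without overlap, and the repair factor Sox9 42.7 and 24.4 FPKM and the trefoil peptide Tff3 4893 and 2898 FPKM with it. Of 15 tubular function genes that are known to fall in injury, 11 lay below 0 (median -0.45) and 6 lay wholly lower, against 5.56% of all kidney genes. This list is not separate from the segment markers above. It shares Lrp2, Cubn, Slc34a1, Slc5a2, Slc5a12, Slc22a6, Slc22a8, Miox and Acsm2 with the proximal tubule list. Umod and Calb1 are also loop to collecting duct markers. Pck1, a gluconeogenic enzyme of the proximal tubule, averaged 631 and 332 FPKM. Calb1 and Kl, both of the distal nephron, were on the other side, at 67.7 ± 18.1 and 701 ± 461 FPKM and at 26.4 ± 3.87 and 82.5 ± 48.5 FPKM, without overlap. No gene of these lists passed the adjusted threshold, and none of the 5 lists had a called gene in any of the 7 tissues.

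In lung it was Lcn2 that separated the arms, in the opposite direction. It was at 3415, 1652 and 699 FPKM with vehicle and 341, 318 and 289 FPKM with empagliflozin. The lowest vehicle library was 2.05 times the highest empagliflozin library, and the vehicle libraries varied widely among themselves. The means were 1922 ± 1378 and 316 ± 26.3 FPKM (SD, n = 3 each), a log2 difference of -2.32 ± 0.52, with vehicle at 6.08 times empagliflozin. Of 14161 lung genes, 2 had a difference at least as low, Lcn2 included. The arms did not overlap in 12.9% of lung genes, and in 4.84% empagliflozin lay wholly lower. Adjusted over all genes 0 lung genes passed with limma, and 1079 had an unadjusted p under 0.05. Without vehicle lung library 3, the lowest vehicle value, the count was 51.

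The other members overlapped between the lung arms. Spp1 was at 82.0, 19.2 and 43.5 FPKM with vehicle and 58.6, 5.99 and 12.9 FPKM with empagliflozin (-1.23 ± 0.83), ranging from -2.10 without empagliflozin library 1 to -0.55 without empagliflozin library 2. Clu was at 411, 355 and 288 FPKM and at 562, 582 and 409 FPKM (0.55 ± 0.19), and the arms touched where the highest vehicle value met the lowest empagliflozin value. Timp1 was at 62.5, 133 and 51.5 FPKM and at 54.3, 83.3 and 58.4 FPKM (-0.23 ± 0.35), which turned to 0.175 without vehicle library 2. Havcr1 averaged below 1 FPKM in both lung arms, at 1.09, 1.60 and 0.19 FPKM and 0.69, 0.42 and 0.20 FPKM, and was left out of the fit. Lung libraries of the same number deviated together (r = 0.227, 0.303 and 0.346). The numbers come from the titles alone, so reading them as pairs is a choice taken from the same data. Within all 3 pairs Lcn2 was lower with empagliflozin (-3.32, -2.37 and -1.27), as was Spp1 (-0.48, -1.53 and -1.68), which was so for 14.5% of lung genes. Clu was higher in all 3 (0.45, 0.71 and 0.50), as were 20.1% of genes, and Timp1 was lower in 2 and higher in 1. The SEs above are those without pairing. Side by side, the log2 differences in kidney and lung were 1.72 and -1.23 for Spp1, 0.55 and -0.39 for Havcr1, -0.23 and -2.32 for Lcn2, 0.27 and 0.55 for Clu, and 0.38 and -0.23 for Timp1. These pairs are values only, since both contrasts were known when the members were chosen.

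**Figure D2:**
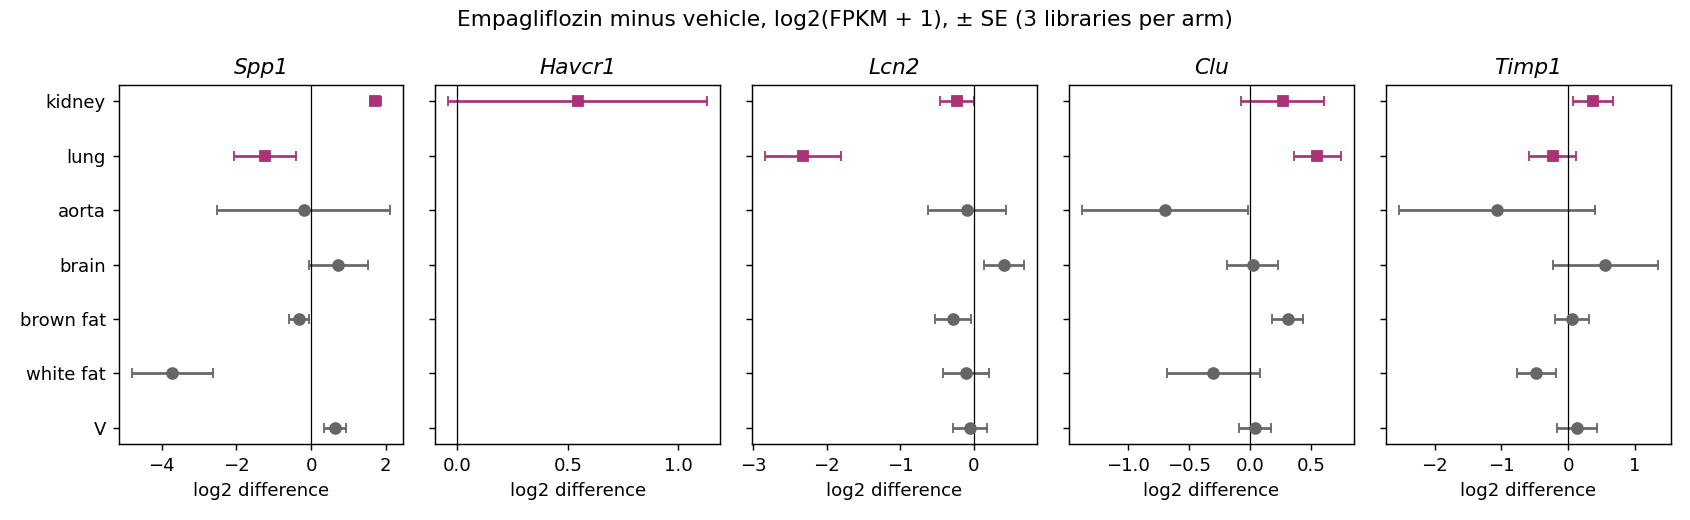
Empagliflozin minus vehicle for each member on the log2(FPKM + 1) scale (x axis, bars are SE), by tissue (y axis). Squares are kidney and lung, which chose the members, and circles the tested tissues. Spp1 is at 1.72 in kidney and -3.71 in white fat, Lcn2 at -2.32 in lung, and Havcr1 appears for kidney alone because it is under the filter elsewhere.

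Markers of some lung cell types also differed between the arms. Macrophage markers summed to 933 to 1018 FPKM with vehicle and 589 to 906 FPKM with empagliflozin and did not overlap, although 0 of 11 single markers separated the arms. Neutrophil markers, a cell type that stores lipocalin 2, summed to 122 to 207 and 109 to 228 FPKM, and T cell markers to 97.2 to 193 and 89.3 to 127 FPKM. Both sums overlapped. By single markers, 10 of 11 for macrophages lay below 0 (median -0.39). For neutrophils 6 of 7 did (median -0.18) and for T cells 6 of 6 (median -0.50). In each of these 2 lists 1 marker lay wholly lower. Alveolar and airway markers summed to 53900 to 72050 and 66270 to 87840 FPKM. Mesothelial markers summed to 197 to 238 with vehicle and 308 to 381 FPKM with empagliflozin, and all 6 markers lay wholly higher, as did 8.01% of lung genes. Red blood cell markers summed to 3002 to 3346 FPKM with vehicle and 1657 to 2686 FPKM with empagliflozin, and 2 of 3, Hbb and Alas2, lay wholly lower. Their part in the Lcn2 difference was not tested. In the injury and repair list the chemokine Ccl2 averaged 30.8 and 6.16 FPKM and Hmox1, which degrades heme, 263 and 85.4 FPKM, both overlapping. Of 30 tested genes of that list 20 lay below 0, with a median of -0.10 against 0.03 over all lung genes, of which 56.3% lay above 0.

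**Figure D3:**
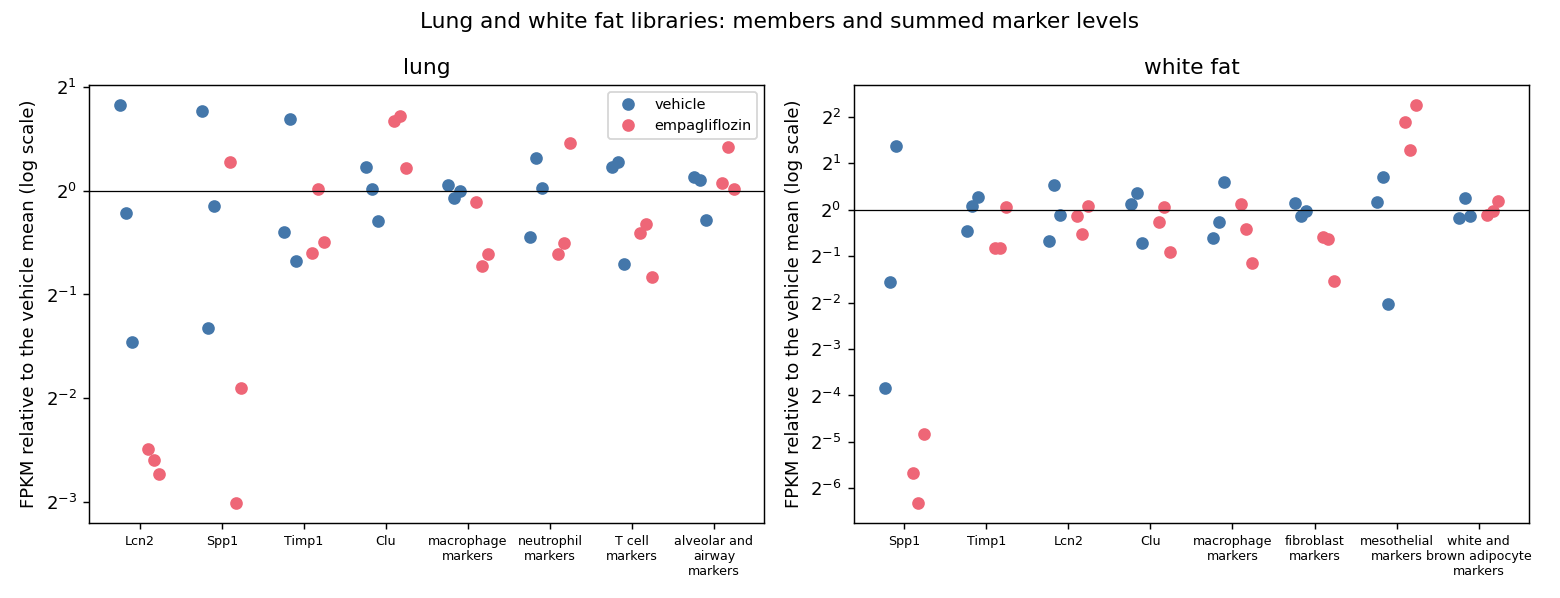
Members and summed marker levels in lung (left) and white fat (right), each relative to its vehicle mean (y axis, log scale), with points for libraries and colours for arms. In lung all 3 empagliflozin Lcn2 values lie below the vehicle values, and in white fat all 3 empagliflozin Spp1 values do.

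In the 5 tissues whose arm contrasts did not choose the members, 0 of 20 member tests passed with limma (adjusted over all genes of the tissue), 2 had an unadjusted p under 0.05, and the smallest adjusted p was 0.495. The genes called in these tissues numbered 0 in aorta and brain and 1 each in brown fat (0.00850%), white fat (0.00785%) and V (0.00850%). Havcr1 had under 1 FPKM in all of them and was not tested; it was listed at 0 in every vehicle brain and white fat library, and its highest level in the 5 tissues was 0.25 FPKM, in V.

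Of all arm differences of the members, that of Spp1 in white fat was the largest. Spp1 was at 6.47, 31.5 and 241 FPKM with vehicle and 1.82, 1.17 and 3.26 FPKM with empagliflozin. All empagliflozin libraries lay below all vehicle libraries, which was so for 12.1% of white fat genes; 17.2% did not overlap in either direction. The difference was -3.71 ± 1.10, the lowest of 12740 genes, with adjusted p = 0.495. Without vehicle library 3, at 241 FPKM, it was -2.40 (adjusted p = 0.877), and over all libraries left out in turn it ranged down to -4.90 (adjusted p = 0.351 to 0.877).

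Macrophage markers in white fat went partly with Spp1. The summed level overlapped, at 206 to 474 FPKM with vehicle and 143 to 344 FPKM with empagliflozin. Of 11 tested markers 8 had a difference below 0 and 5 lay wholly lower, namely Cd68, Mrc1, Itgax, Trem2 and Gpnmb. Cd68, a lysosomal protein of macrophages, averaged 42.1 and 13.6 FPKM, and Gpnmb, a glycoprotein of lipid-laden macrophages, 85.3 and 8.47 FPKM. The complement genes C1qa, C1qb and C1qc went the other way, at 48.5 and 68.0, 37.5 and 57.6, and 47.1 and 67.5 FPKM. Fibroblast markers summed to 1867 to 2268 FPKM with vehicle and 709 to 1360 FPKM with empagliflozin, without overlap. Mesothelial markers went the other way, at 13.9 to 92.0 and 138 to 270 FPKM, while adipocyte markers overlapped, at 27510 to 36750 and 28680 to 35450 FPKM. Empagliflozin libraries 1 and 2 also held the lung transcript Sftpc, at 33.1 and 18.2 FPKM. These lists' part in the Spp1 values was not tested.

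The other members of white fat overlapped. Timp1 was at 25.4, 36.9 and 41.8 FPKM with vehicle and 19.7, 19.7 and 36.1 FPKM with empagliflozin (adjusted p = 0.606). Lcn2 was at 13.9, 32.2 and 20.6 FPKM and at 20.3, 15.6 and 23.4 FPKM (adjusted p = 0.884), and Clu at 751, 884 and 421 FPKM and at 573, 713 and 367 FPKM (adjusted p = 0.727). Mmp2 and Mmp14, which degrade matrix and which TIMPs inhibit, averaged 117 and 61.9 FPKM and 42.1 and 21.9 FPKM without overlap (adjusted p = 0.573 and 0.571), and 11 of 12 metalloproteinase and TIMP genes lay below 0, with a median of -0.41 against -0.18 over all white fat genes, of which 31.1% lay above 0.

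In brown fat Clu was at 306, 337 and 333 FPKM with vehicle and 438, 400.3 and 373 FPKM with empagliflozin, without overlap. The difference was 0.31 ± 0.13 with adjusted p = 0.994 and unadjusted p = 0.0411, and 8.39% of brown fat genes did not overlap, 5.84% with empagliflozin higher. Spp1 was at 1.30, 1.87 and 1.61 FPKM and at 2.01, 0.51 and 0.91 FPKM, Lcn2 at 2.84, 3.52 and 5.03 FPKM and at 2.16, 2.68 and 4.02 FPKM, and Timp1 at 5.94, 6.58 and 11.8 FPKM and at 9.84, 7.91 and 6.89 FPKM. These 3 overlapped.

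In aorta Spp1, Timp1 and Clu were lowest in library 1 of each arm. Spp1 was at 0.68, 656 and 107 FPKM with vehicle and 4.27, 144 and 102 FPKM with empagliflozin, and Timp1 at 9.15, 187 and 207 FPKM and 7.50, 145 and 33.5 FPKM. These are the libraries that resembled brown fat, and the arms overlapped. Clu was at 269, 1334 and 820 FPKM and 274, 439.7 and 577 FPKM, and Lcn2 at 12.8, 7.28 and 20.96 FPKM and 9.35, 22.3 and 7.54 FPKM. The adjusted p was 0.999 for each, and 6.75% of aorta genes did not overlap.

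In brain and in V no member separated the arms, against 5.92% and 9.07% of genes. Brain empagliflozin library 3 had the highest brain Spp1 (12.6 FPKM) and Timp1 (20.3 FPKM), and its fibroblast markers summed to 214 FPKM against 22.7 to 64.6 FPKM in the other brain libraries. The remaining brain Spp1 values were 1.14, 1.57 and 6.51 FPKM with vehicle and 6.29 and 0.92 FPKM with empagliflozin. The remaining Timp1 values were 3.43, 4.27 and 1.71 FPKM with vehicle and 2.62 and 1.63 FPKM with empagliflozin. Brain Clu was at 509, 557 and 589 FPKM and at 510.25, 465 and 743 FPKM, and brain Lcn2 at 0.76, 0.76 and 1.13 FPKM and at 1.14, 1.06 and 2.52 FPKM. Spp1 in V was at 1.02, 2.45 and 0.77 FPKM and at 2.47, 1.67 and 4.01 FPKM (0.64 ± 0.30, adjusted p = 0.999). V empagliflozin libraries 2 and 3 also held kidney transcripts, with proximal tubule markers summing to 16.9 and 21.8 FPKM against 2.65 to 4.36 FPKM in the vehicle libraries. Lcn2 in V was at 15.9, 13.9 and 12.2 FPKM and 15.9, 17.2 and 8.76 FPKM, Clu at 1020.2, 1142 and 1196 FPKM and 1260.2, 1243 and 976 FPKM, and Timp1 at 16.6, 11.4 and 9.81 FPKM and 22.4, 10.8 and 10.2 FPKM.

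**Figure D4:**
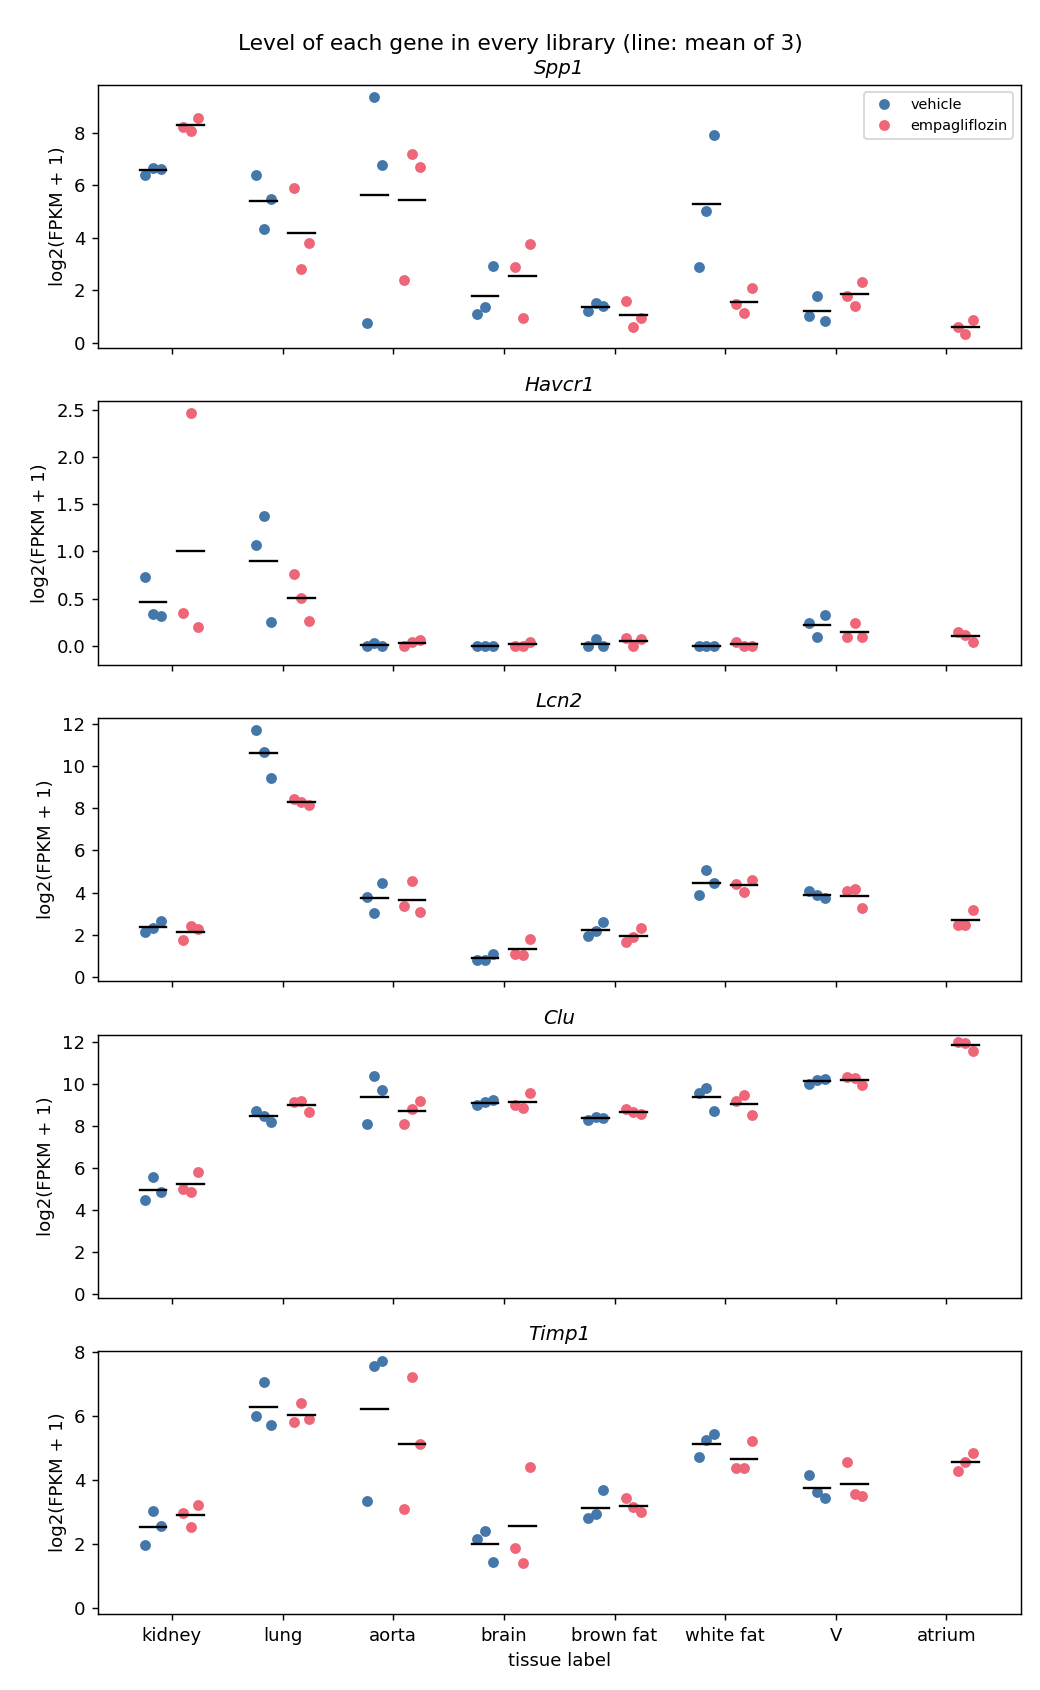
Level of each member in every library on the log2(FPKM + 1) scale (y axis), by tissue and arm, with a line at the mean of the 3 libraries. By group mean with empagliflozin, Spp1 is highest in kidney, Lcn2 in lung and Clu in atrium; the highest single Spp1 value is vehicle aorta library 2 at 656 FPKM.

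Levels between tissues of the vehicle rats did not use the arm contrast. The members were still chosen by their FPKM in kidney and lung. Kidney against lung is therefore given as values, and the kidney level enters every other comparison. Vehicle kidney was compared with the other 6 vehicle tissues in 1 limma fit of 21 libraries. The results follow by gene, without a count, since a count with lung would include levels that chose the members. The share of all genes called was 52.1% against lung, 45.5% against aorta, 59.0% against brain, 43.8% against brown fat, 43.6% against white fat and 50.9% against V. Lung exceeded kidney in Lcn2 by 458 times (-8.27 ± 0.44). Clu was lower in kidney than in each of the 6 tissues, from -3.40 against brown fat to -5.18 against V. Outside lung, its largest adjusted p was 3.67e-06. Spp1 was higher in kidney than in brain (4.77), brown fat (5.19) and V (5.35), with adjusted p = 0.0109, 0.00915 and 0.00632. It did not pass against lung, aorta or white fat (adjusted p = 0.552, 0.659 and 0.545), and without vehicle aorta library 1, at 0.68 FPKM, the aorta difference turned from 0.94 to -1.50. Timp1 was lower in kidney than in lung (-3.73), aorta (-3.68) and white fat (-2.61), the last with adjusted p = 0.0507 when vehicle kidney library 1 was left out; with only kidney and aorta fitted, aorta gave adjusted p = 0.0661. Lcn2 was lower in kidney than in aorta, white fat and V as well and higher than in brain (1.45, adjusted p = 0.00931). Without vehicle kidney library 1 the aorta value gave adjusted p = 0.0577. Against brown fat Lcn2 gave adjusted p = 0.879. Timp1 did not pass against brain, brown fat or V (adjusted p = 0.600, 0.588 and 0.220).

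**Figure D5:**
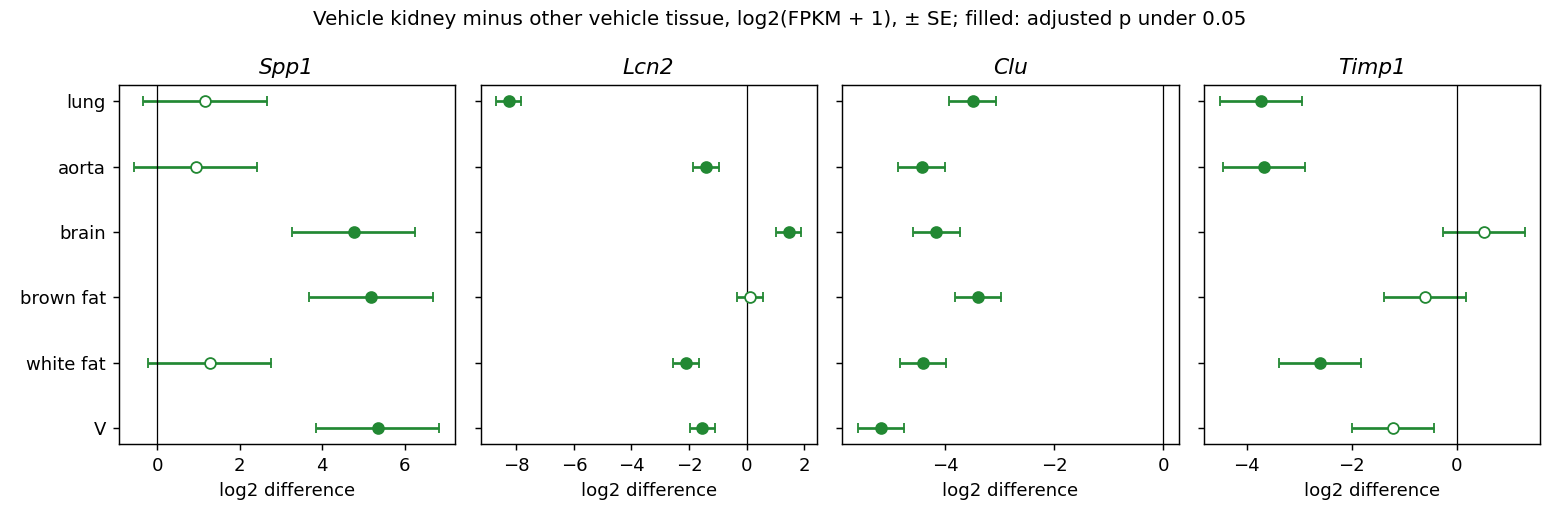
Vehicle kidney minus each other vehicle tissue for 4 members on the log2(FPKM + 1) scale (x axis), with filled points where the adjusted p is under 0.05. Points against lung are values only, since kidney and lung levels chose the members. Clu lies below 0 against all 6 tissues, and Lcn2 lies lowest, at -8.27, against lung.

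The order of tissues differed by gene. Vehicle Spp1 ran from aorta (255 FPKM) through kidney, white fat and lung to brain, brown fat and V (1.41 FPKM), with a gap free of overlap between neighbours between lung and brain alone. With empagliflozin, kidney stood first, clear of aorta (83.4 FPKM). Lcn2 was highest in lung in both arms, clear of white fat. Clu was highest in V of the vehicle tissues and in atrium of the empagliflozin tissues, and kidney was last in both arms, clear of brown fat. Timp1 was highest in aorta with vehicle and in lung with empagliflozin, where its neighbour aorta overlapped. Havcr1 was highest in lung with vehicle (0.96 FPKM) and in kidney with empagliflozin (1.65 FPKM), the latter through a single library.

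Within the empagliflozin arm, atrium was compared with V, and 51.7% of genes passed. Atrial Clu was at 4017, 3928 and 3063 FPKM, the first of these being the highest member value in any library, and exceeded V by 1.66 (adjusted p = 0.000336). Spp1 in atrium was at 0.50, 0.26 and 0.82 FPKM, lower than V by a difference of -1.25 (adjusted p = 0.00616), and Lcn2 was at 4.56, 4.50 and 7.97 FPKM (-1.15, adjusted p = 0.0137). Timp1 was at 18.2, 22.7 and 27.6 FPKM and gave 0.69 with adjusted p = 0.0874, or 1.03 with adjusted p = 0.00711 without V library 1. Of 4 tests 3 therefore passed.

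Over the 15 group means, the genes with the pattern most like a member's were named by Pearson r as a description. For Spp1 these were LOC103689934 (0.92), the vasopressin receptor gene Avpr1a (0.91) and Errfi1 (0.90). For Havcr1 they were Hgfac (0.96), RGD1565410 (0.95) and LOC100910848 (0.95), for Lcn2 Klrk1 (0.98), Rac2 (0.97) and Hmgb2l1 (0.97), for Clu Nol3 (0.94), Fry (0.93) and Qsox1 (0.92), and for Timp1 Kdelr3, Lox and C1qtnf7 (0.97, 0.97 and 0.96). Among the members themselves Lcn2 and Timp1 had the highest r (0.80), and Spp1 and Clu the lowest (-0.71). The 15 means share rats, libraries and scaling, and no p is given. Those of Havcr1 were under 1 FPKM in every group but empagliflozin kidney, at 1.65 FPKM through library 2 at 4.52 FPKM.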

How the data were processed

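Per the labels' protocols, RNA of 8 tissues was read single-end for 50 bases on a BGISEQ-500. HISAT2 2.0.4, Bowtie2 2.2.5 and build Rnor_6.0 are named per the submitters' processing notes; these sources do not say how reads were counted. The authors deposited FPKM per gene and library in separate tables for the arms, with no columns left unused. Of 20794 genes 276 were at 0 in every library. FPKM are not counts, so depth and counting intervals are unknown. Low values of 822 genes gave a relative value of 1 read of 0.938 to 1.08 per library, a range bounded by using only values up to 1.5 times the lowest of a gene.

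Each tissue was fitted alone with limma 3.58.1 in R 4.3.3 (trend, empirical Bayes) on log2(FPKM + 1), for genes averaging 1 FPKM or more in either arm, and vehicle tissues in 1 fit. Tests are two-sided and adjusted by Benjamini-Hochberg over all genes of the fit at 0.05. The scripts were tested on simulated data. Python 3.11.15 and pandas 2.3.3 made the summaries. The members, gene lists (209 of 210 list genes matched) and markers were chosen with earlier results of these data known. By the rule for named genes, each list names 3 genes per tissue, by largest difference in kidney and lung and by lowest p elsewhere; the text describes those of kidney and some of lung and white fat. A gene that the rule names is not reported here. Motifs were chosen with the data known, and a narrower form of the NF-kB motif, written after the Lcn2 sequence was seen, was dropped.

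Replicate numbers come from the titles. In lung, libraries of the same number deviated together (r = 0.227, 0.303 and 0.346), so differences within these pairs are given there, a pairing read from the same data, beside the unpaired fit; no other tissue had all 3 over 0.1. Alternatives were quantile normalization, median-ratio scaling, a minimum mean of 5 FPKM or none, a pseudocount of 0.1, a joint fit of all tissues, only the 2 tissues compared, the replicate block and each library left out. Scaling to equal totals and leaving out aorta libraries numbered 1 were chosen after seeing the data.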

Additional observations from a re-analysis of the deposited data

Results flagged for a closer look

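Spp1 went in opposite directions in kidney and white fat: every empagliflozin library lay above every vehicle library in kidney and below every one in white fat, and the log2 differences lay 5.44 apart. With empagliflozin, 13.6% of all kidney genes lay wholly higher and 12.1% of all white fat genes wholly lower. The difference between the tissues was not tested, and the kidney contrast was among those that chose the gene. The vehicle white fat libraries alone ranged from 6.47 to 241 FPKM, and without the highest of them the white fat difference was -2.40 in place of -3.71.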

How the results depend on the processing

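Depth is unknown, and 3 libraries a group limit every comparison. Of the kidney and lung member differences, all 123 values under the alternatives moved by less than 1 SD, but some changed sign. With each library left out, Clu in kidney ranged from -0.0229 to 0.57 and Timp1 in lung from -0.499 to 0.175. Spp1 ranged from 1.59 to 1.83 in kidney and -2.10 to -0.55 in lung, Lcn2 in lung from -2.91 to -1.77 and Spp1 in white fat from -4.90 to -2.40. Havcr1 in kidney fell under the filter, with no value, without empagliflozin library 2. Of the tested member values, 543 kept their direction and side of the threshold, 32 changed sign, 2 came to pass and 3 ceased to; the cause was not tested.

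With all tissues in 1 fit, genes called numbered 219 (kidney), 221 (lung), 153 (aorta), 185 (brain), 0 (brown fat), 121 (white fat) and 2 (V). Median-ratio scaling called 1 in kidney. In white fat a mean of at least 5 FPKM gave 0, and the replicate block gave 0; in lung the block left the count at 0. With each library left out, the counts ranged from 0 to 636 in kidney, 0 to 51 in lung, 1 to 3 in brown fat, 0 to 8 in brain, 0 to 4 in white fat and 1 to 19 in V. Fitting kidney and aorta alone called 3839 genes, where Timp1 gave -3.68 (adjusted p = 0.0661); fitting kidney and V alone, Timp1 passed at -1.21 (adjusted p = 0.0051).

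Signs turned as follows. Spp1 in aorta was 0.0755 with a pseudocount of 0.1, and Lcn2 in aorta 0.066 without both libraries numbered 1. Under median-ratio scaling Clu in brain was -0.0259, Timp1 in brown fat -0.000492, Lcn2 in white fat 0.0742 and Lcn2 of kidney against brown fat -0.0481. Under quantile normalization the last 3 were -0.0269, 0.0328 and -0.29.

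With each library left out, differences between the arms ranged from -2.64 to 1.67 for Spp1, and from -0.53 to 0.25 for Lcn2, in aorta; from -0.18 to 0.16 for Clu and -0.37 to 1.14 for Timp1 in brain; from -0.11 to 0.33 for Timp1 in brown fat; from -0.39 to 0.19 for Lcn2 in white fat; and in V from -0.22 to 0.23 for Lcn2, -0.0207 to 0.16 for Clu and -0.21 to 0.33 for Timp1. Kidney minus aorta ranged from -1.50 to 1.02 for Spp1 and -1.56 to -1.28 for Lcn2, kidney minus brown fat from -0.0273 to 0.25 for Lcn2, kidney minus white fat from -2.86 to -2.33 for Timp1, and atrium minus V from 0.50 to 1.03 for Timp1.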
